A study of Mus musculus with 6 samples.

Results

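A set of 10 genes of the AP-1 and immediate early response was followed in the mouse RNA of liver samples, as the labels name the tissue, from mice carrying a human tumor, namely Fos, Fosb, Fosl1, Fosl2, Jun, Junb, Jund, Egr1, Atf3 and Ier3. They were taken by name, though with earlier results of these data known, from a table of 56884 mouse genes. Of the 10, 9 had at least 10 counts over the 6 libraries and were tested among 18018 genes. Male BALB/c (nu/nu) athymic mice aged 6 weeks, which lack a thymus, received QGY-7703 cells, a human hepatocellular carcinoma line, in the liver. After 1 week an AAV8 vector was given by tail vein, carrying either siControl (3 libraries, genotype label WT) or siAATF (3 libraries, genotype label KD) under the TBG promoter, which is active in hepatocytes, and tissue was collected 3 weeks later. Both groups therefore carried the xenograft and an AAV8 vector, and differed by label in the siRNA alone. The labels do not say that each library came from a separate mouse, so p-values measure the spread between these libraries.

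AP-1 is a dimer of leucine zipper proteins, in which a Jun protein pairs with a Fos, ATF or Maf protein or with another Jun protein, and Fos proteins bind DNA only with a partner. Immediate early genes are transcribed from factors already present in the cell, mainly SRF with its ternary complex partners, CREB and ATF proteins, after growth factor, cytokine or stress signals reach MAP kinases. In liver they are known for their rise during regeneration, after tissue injury and when cells are isolated.

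The mouse RNA behind these values differed greatly in depth and make-up between the groups. Mouse gene counts ran from 213022 to 913584 in the siControl libraries and from 11835898 to 42563694 in the siAATF libraries, and human genes took 98.5% ± 0.606 (SD, n = 3) of all gene counts with siControl and 1.42% ± 0.625 (SD, n = 3) with siAATF (exact permutation test, two-sided p = 0.1, the smallest that 3 against 3 allows). Aatf, the targeted gene, measured 9.63, 2.42 and 12.8 CPM of the mouse counts after TMM scaling (TMM CPM) with siControl and 13.3, 22.0 and 18.9 with siAATF. It was thus not lower in the siAATF group (log2 fold change 0.93, SE 0.47, edgeR quasi-likelihood test, Benjamini-Hochberg adjusted p = 0.152), the opposite direction to the label, and its direction turned with library size alone as the scaling (-0.92) and after thinning every library to the smallest mouse total (-0.11). Every direction below is therefore that of the libraries labelled siAATF against the libraries labelled siControl, on the scale of mouse counts. Mitochondrial genes took 4.04% to 10.5% of mouse counts with siControl and 20.8% to 56.1% with siAATF, the highest in siAATF replicate 2.

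Short stretches upstream of 6 members are shown, 4 of which hold an element that serum response factor or CREB, ATF or AP-1 dimers are known to bind. They are from GRCm39, are written 5′ to 3′ on the gene's strand and lie upstream of the canonical start in the GENCODE vM39 annotation. Capitals mark a CArG box, the SRF element, in Fos and Fosb, and TGACNTCA in Jun and Jund. Atf3 and Ier3, which had the largest differences among the members, are shown for the 150 bases before their start, in which none of the motifs searched occurred.
Fos, chr12:85520325-85520394, + strand: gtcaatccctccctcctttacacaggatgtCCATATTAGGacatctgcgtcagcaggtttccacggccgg
Fosb, chr7:19044203-19044272, - strand: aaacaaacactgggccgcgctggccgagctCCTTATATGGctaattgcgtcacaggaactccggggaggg
Jun, chr4:94940465-94940534, - strand: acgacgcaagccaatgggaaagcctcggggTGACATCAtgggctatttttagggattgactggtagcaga
Jund, chr8:71151355-71151424, + strand: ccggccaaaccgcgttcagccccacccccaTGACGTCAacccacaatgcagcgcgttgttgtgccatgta
Atf3, chr1:190915538-190915687, - strand: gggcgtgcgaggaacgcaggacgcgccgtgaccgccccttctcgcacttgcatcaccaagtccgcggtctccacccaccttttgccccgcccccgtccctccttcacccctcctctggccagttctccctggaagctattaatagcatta
Ier3, chr17:36132418-36132567, + strand: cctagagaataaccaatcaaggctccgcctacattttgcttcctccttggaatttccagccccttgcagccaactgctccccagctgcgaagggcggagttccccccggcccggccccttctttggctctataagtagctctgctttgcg

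Over the 500 bases upstream of the start, both strands searched, the CArG box matched in Fos and Fosb and in 2.76% of the 21770 protein-coding genes. TGACNTCA matched in Jun, 45 bases upstream, and in Jund, 214 bases upstream, against 10.7% of genes. TGACTCA, which is 1 base shorter than TGACNTCA, matched in 0 of the 10 members against 7.57% of genes. TATAAA matched in Fos, Junb and Fosl1 against 24.3% of genes. The Atf3 stretch lies inside the gene as the count table draws it, because longer Atf3 transcripts start farther upstream. Matches describe the letters of these windows and were not tied to the counts.

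Of the 9 members tested, Fos, Fosl2, Atf3 and Ier3 were lower with siAATF and 0 were higher (edgeR quasi-likelihood test, Benjamini-Hochberg adjusted p under 0.05 over all 18018 genes), where 14.4% of all tested genes were called lower, 17.6% higher and 32% in either direction. In 5 members (these 4 and Junb) every siAATF library was below every siControl library, against 18.1% of all tested genes, and in 0 members every siAATF library was above, against 34.5%. Fosb, Jun, Junb, Jund and Egr1 did not pass. The median log2 fold change of the 9 was -1.95, against 0.50 over all genes tested. The human and mouse share of the library, and with it the cells the mouse RNA came from, moved with the group, so that in these bulk samples fewer cells of a type and less RNA per cell cannot be told apart.

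**Figure D1:**
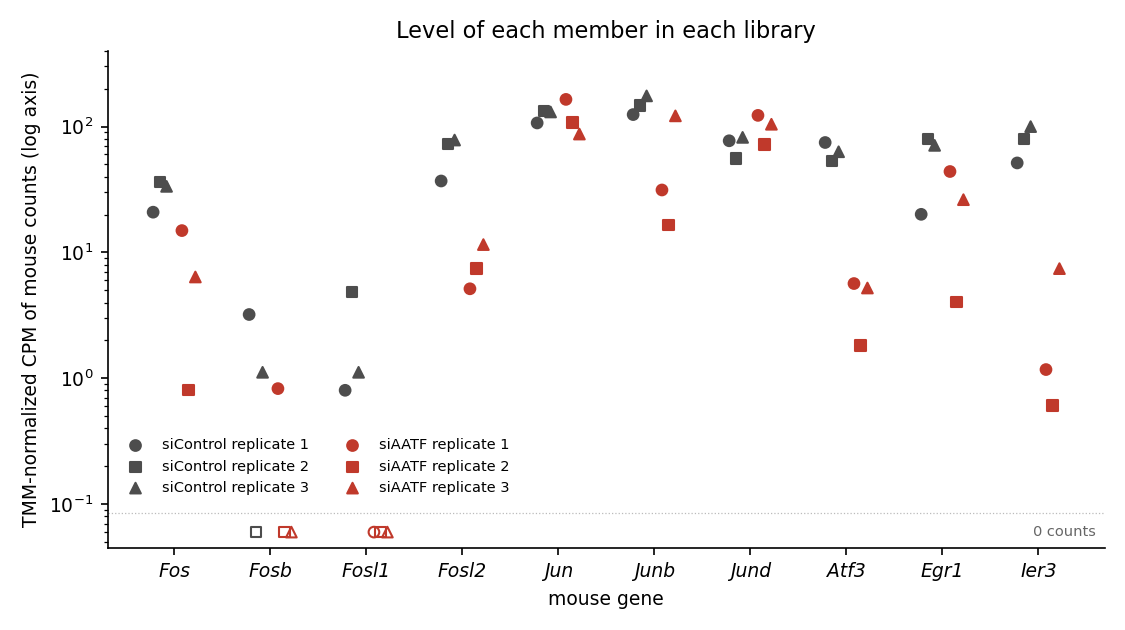
Level of each of the 10 members in each library, in TMM CPM on a logarithmic axis, 1 symbol per library, with libraries at 0 counts as open symbols below the dotted line. Among the 9 members tested, Atf3, Ier3, Fosl2, Fos and Junb have every siAATF library below every siControl library, Junb by a narrow gap, and the siAATF libraries of Jun lie on both sides of its siControl libraries.

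Ier3 (ENSMUSG00000003541, chr17:36132576-36133815), an early response gene that modulates apoptosis and ERK signaling, measured 51.4, 79.7 and 99.8 TMM CPM with siControl and 1.17, 0.605 and 7.43 with siAATF, each time in the order of the replicate numbers. The highest siAATF library, replicate 3, was far below the lowest siControl library. The means were 77.0 ± 24.3 and 3.07 ± 3.79 (SD, n = 3 each), and the level fitted by edgeR was 23.7-fold lower (log2 fold change -4.57, 95% interval -6.19 to -2.94, SE 0.75, edgeR adjusted p = 0.000629). Without siAATF replicate 3 the log2 fold change was -6.22. In siAATF replicate 2 the value rests on 3 counts, at the floor that separates a count from 0.

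Atf3 (ENSMUSG00000026628, chr1:190902493-190950236), a stress-induced bZIP factor that pairs with Jun proteins, measured 74.7, 53.1 and 63.0 TMM CPM with siControl and 5.66, 1.82 and 5.21 with siAATF. Each group was tight beside the distance between them. The means were 63.6 ± 10.8 and 4.23 ± 2.10 (SD, n = 3 each), with a fitted level 14.5-fold lower (log2 fold change -3.86, 95% interval -4.85 to -2.87, SE 0.45, edgeR adjusted p = 8.53e-05).

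Among the Fos proteins, Fosl2 (ENSMUSG00000029135, chr5:32293145-32315186), which codes for Fra-2, measured 36.9, 72.5 and 78.1 TMM CPM with siControl and 5.14, 7.46 and 11.5 with siAATF, without overlap. The fitted level was 7.70-fold lower (62.5 ± 22.3 against 8.05 ± 3.24, SD, n = 3 each, log2 fold change -2.95, SE 0.45, edgeR adjusted p = 0.000372). Fosl2 and Atf3 were among the 3 members called in each of the 6 fits that left out 1 library, with Ier3 as the other.

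Fos (ENSMUSG00000021250, chr12:85520664-85524047), the founding Fos member, measured 20.9, 36.2 and 33.5 TMM CPM with siControl and 14.9, 0.807 and 6.38 with siAATF. The groups did not overlap, but the siAATF libraries differed widely among themselves and replicate 2 rests on 4 counts. The means were 30.2 ± 8.19 and 7.36 ± 7.10 (SD, n = 3 each), with a fitted level 3.86-fold lower (log2 fold change -1.95, 95% interval -3.43 to -0.47, SE 0.68, edgeR adjusted p = 0.0448). The call was lost without siControl replicate 1 (adjusted p = 0.0583), replicate 2 (adjusted p = 0.12) or replicate 3 (adjusted p = 0.147), and when the 500 highest genes were kept out of the scaling (adjusted p = 0.0568). Over the 6 fits that left out 1 library, the log2 fold change ran from -2.90 without siAATF replicate 1 to -1.41 without siAATF replicate 2.

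The remaining Fos proteins were barely counted. Fosb (ENSMUSG00000003545, chr7:19036621-19043976), whose spliced form ΔFosB is best known from neurons, had 4, 0 and 2 counts with siControl and 24, 0 and 0 with siAATF. It did not pass (log2 fold change -2.29, 95% interval -5.41 to 0.83, edgeR adjusted p = 0.248). Fosl1 (ENSMUSG00000024912, chr19:5497575-5505974), which codes for Fra-1, had 1, 2 and 2 counts with siControl and 0 in each siAATF library, and was too low to test. The limit that a count of 0 allows, 3 counts, was 1.67 to 7.25 TMM CPM with siControl and 0.104 to 0.605 with siAATF, so no fold is given for Fosl1, which also overlaps the more highly counted Ccdc85b on the opposite strand.

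The Jun proteins, the obligate partners, did not pass in either direction. Jun (ENSMUSG00000052684, chr4:94937271-94940459), which codes for c-Jun, measured 107, 133 and 130.5 TMM CPM with siControl and 164, 107 and 87.1 with siAATF. The siAATF libraries lay on both sides of the siControl range. The means were 123 ± 14.4 and 119.5 ± 40.04 (SD, n = 3 each, log2 fold change -0.04, 95% interval -0.91 to 0.82, edgeR adjusted p = 0.95), an interval that still holds changes of nearly 1 log2 unit either way.

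Junb (ENSMUSG00000052837, chr8:85703539-85705347), a Jun protein that often restrains c-Jun, measured 124, 147 and 175 TMM CPM with siControl and 31.3, 16.5 and 122 with siAATF. The siAATF group was split, replicate 3 lying just under the lowest siControl library and the other two far below it. The difference did not pass (149 ± 25.4 against 56.5 ± 56.8, SD, n = 3 each, log2 fold change -1.40, 95% interval -2.74 to -0.06, edgeR adjusted p = 0.105). Without siAATF replicate 3 it passed (log2 fold change -2.57, edgeR adjusted p = 0.000267), as it did with all libraries in DESeq2 (log2 fold change -1.58, adjusted p = 0.0335).

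Jund (ENSMUSG00000071076, chr8:71151599-71153265), the Jun protein held at steady levels in resting cells, measured 77.1, 55.6 and 82.0 TMM CPM with siControl and 123, 72.2 and 104 with siAATF. The groups overlapped and the difference did not pass (71.5 ± 14.1 against 99.7 ± 25.5, SD, n = 3 each, log2 fold change 0.47, 95% interval -0.37 to 1.30, edgeR adjusted p = 0.37). Its difference lay close to the median of all genes, 0.50.

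Egr1 (ENSMUSG00000038418, chr18:34992876-34998037), a zinc finger factor of the same early wave, measured 20.1, 79.7 and 70.8 TMM CPM with siControl and 43.9, 4.03 and 26.2 with siAATF. One siControl library lay below 2 of the siAATF libraries. The difference did not pass (56.9 ± 32.2 against 24.7 ± 19.99, SD, n = 3 each, log2 fold change -1.15, 95% interval -2.65 to 0.34, edgeR adjusted p = 0.225). Replicate 2 of siAATF, the library with the highest mitochondrial share, was the lowest of its group for Egr1, as it was for Fos, Junb, Jund, Atf3 and Ier3 but not for Jun or Fosl2, and the part of that share in these values was not tested.

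**Figure D2:**
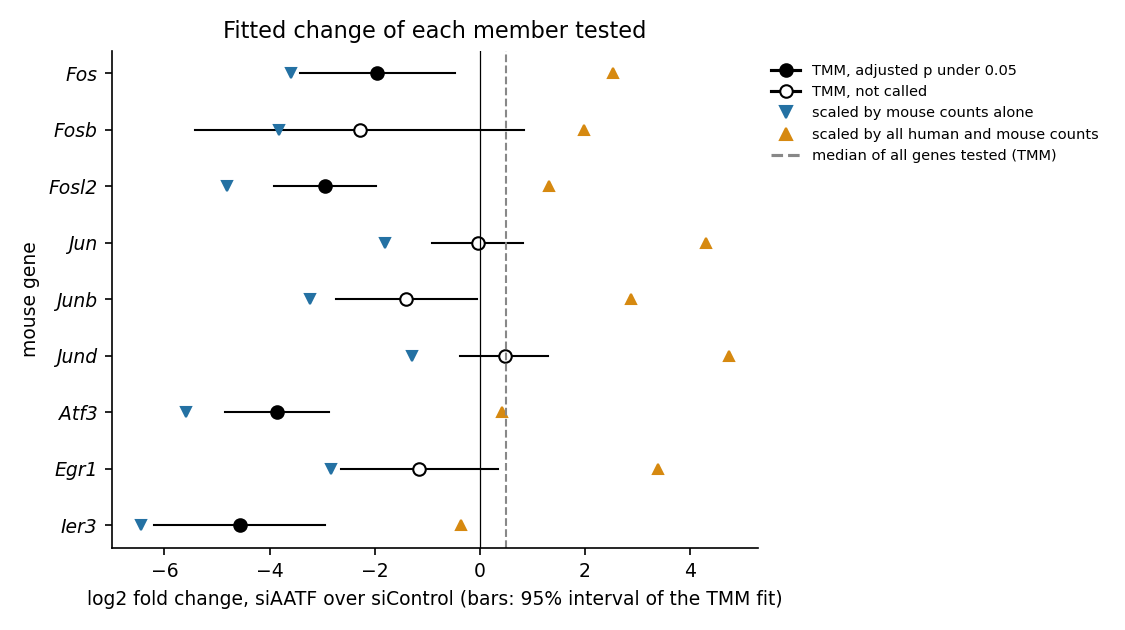
Log2 fold change of each tested member, siAATF against siControl, with its 95% interval (circles, filled where called), the value under other scalings (triangles, mouse library size alone and all human and mouse counts) and the median of all 18018 genes tested (dashed, 0.50). The intervals of Ier3, Atf3, Fosl2 and Fos lie below 0 and those members were called, whereas Junb's interval ends just below 0 and its adjusted p of 0.105 did not pass.

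The members' differences depended on what each library was scaled to. With all human and mouse gene counts as the library size, the median of all genes moved from 0.50 to 4.66, and 8 of the 9 log2 fold changes were positive, 7 of them after a change of sign, among them Jun at 4.31, Fos at 2.53, Fosl2 at 1.32 and Atf3 at 0.43. Ier3 stayed negative at -0.35 (edgeR adjusted p = 0.639), and 5 members were called higher and 0 lower, where 87.2% of all genes were called higher and 0.66% lower. With mouse library size alone the median of all genes was -1.30 and all 9 members were called lower, where 40.4% of all genes were called lower and 4.15% higher. Jund was then at -1.29 and Jun at -1.80. On each scaling named here, every member tested except Jund lay below the median of all genes. Jund lay close to that median, and Jun and Jund lay above the other members.

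A ratio between members of the same library needs no scaling. Jun, chosen as the reference after the values were seen, served as the base, and 7 ratios were compared. Ier3 counts per 100 Jun counts averaged 61.5 ± 14.3 with siControl and 3.27 ± 4.56 with siAATF, Atf3 52.7 ± 15.5 and 3.71 ± 2.16, Fosl2 49.7 ± 13.3 and 7.78 ± 5.10, and Fos 24.2 ± 4.07 and 5.72 ± 4.39 (SD, n = 3 each). For each of these 4 the groups did not overlap (exact permutation test, two-sided p = 0.1, the smallest possible, 0.175 after Benjamini-Hochberg adjustment over the 7). The share of all genes whose ratio to Jun did not overlap was not counted. In TMM CPM, 18.1% of all tested genes were lower without overlap and 34.5% higher. The ratio of Junb to Jun overlapped between the groups, at 120.6 ± 12.1 and 58.0 ± 70.6 counts per 100 (exact p = 0.4), since siAATF replicate 3 reached 139 while the other two siAATF libraries were at 19.1 and 15.4. Jund at 58.9 ± 15.5 and 87.2 ± 28.3 (exact p = 0.2) and Egr1 at 44.4 ± 22.3 and 20.2 ± 14.3 (exact p = 0.3) overlapped as well. No ratio could pass a threshold of 0.05 in this design, and the ratios restate the counts above without a scaling rather than add evidence.

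Within the Jun family, counted per gene length, Junb was the leading member in all 3 siControl libraries and in siAATF replicate 3, and Jund in siAATF replicates 1 and 2. Junb made up 50.1% ± 3.24 of the family with siControl and 21.9% ± 18.1 with siAATF, Jund 26.2% ± 4.91 and 47.3% ± 6.49, and Jun 23.7% ± 2.57 and 30.9% ± 11.8 (SD, n = 3 each). The shares of Junb and Jund did not overlap between the groups, although Junb reached 42.8% in siAATF replicate 3. The Fos family as a whole, per length, was 11.3%, 19.7% and 15.4% of the Jun family with siControl and 5.67%, 1.77% and 3.05% with siAATF, again without overlap. Inside the Fos family the shares of Fos and Fosl2 overlapped between the groups, Fos taking 56.6% ± 1.94 and 58.6% ± 31.5 and Fosl2 37.0% ± 4.13 and 40.5% ± 32.7 (SD, n = 3 each), with the siAATF values spread from 25.1% to 87.6% for Fos.

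**Figure D3:**
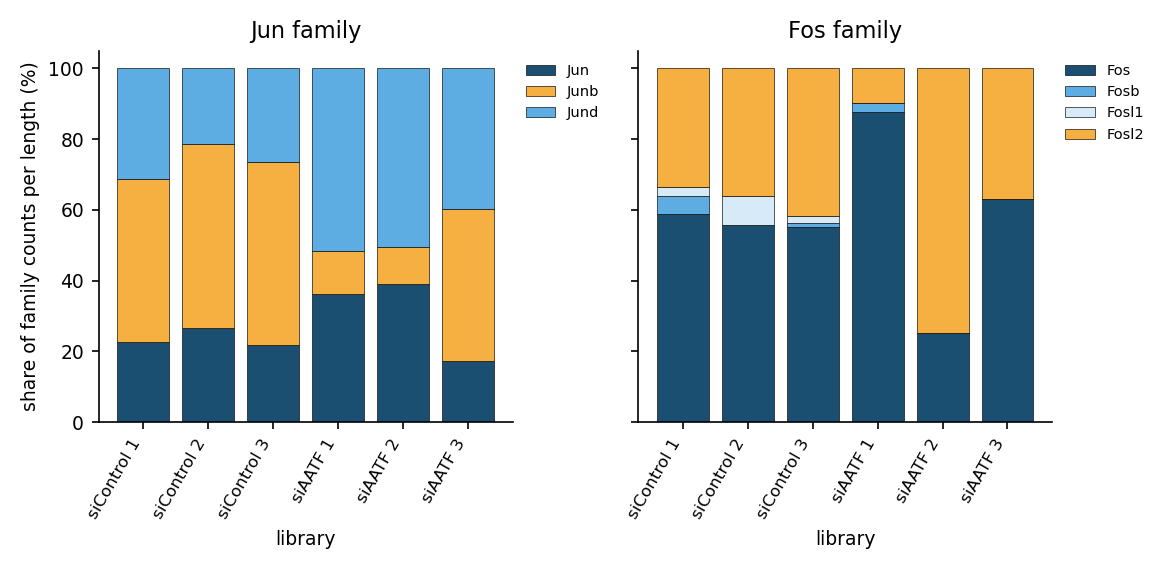
Share of each member in the length-scaled counts of its family, in percent, for each of the 6 libraries. Junb holds the largest Jun-family share in the 3 siControl libraries and, at 42.8%, in siAATF replicate 3, whereas Jund and Jun hold more in siAATF replicates 1 and 2.

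Ordered by level per kilobase with siControl, in TMM CPM per kb, Junb was highest (82.4 ± 14.0), followed by Ier3 (68.1 ± 21.5), Jund (42.9 ± 8.43), Jun (38.7 ± 4.52) and Atf3 (29.5 ± 5.001). Fos (14.3 ± 3.88), Egr1 (12.7 ± 7.18) and Fosl2 (9.56 ± 3.41) formed a middle set, and Fosl1 (1.21 ± 1.20) and Fosb (0.381 ± 0.431) were lowest (SD, n = 3 each). Neighbors in this order overlapped except Atf3 against Fos and Fosl2 against Fosl1. With siAATF the order was Jund (59.8 ± 15.3), Jun (37.5 ± 12.6), Junb (31.2 ± 31.4), Egr1 (5.52 ± 4.46), Fos (3.49 ± 3.37), Ier3 (2.71 ± 3.35), Atf3 (1.96 ± 0.976) and Fosl2 (1.23 ± 0.495), and only Fosl2 against the near-absent Fosb was a neighboring pair without overlap.

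Around the members, the pathway was read from lists of genes by role. Of 26 other immediate early genes tested, 17 fell, 1 rose and 8 did not pass, with a median log2 fold change of -2.10, where 14.4% of all genes were lower and 17.6% higher. The matricellular gene Ccn2 fell from 301 ± 97.0 to 6.72 ± 7.004 TMM CPM (log2 fold change -5.43, edgeR adjusted p = 0.000197), the stress gene Gadd45b from 48.4 ± 25.8 to 1.76 ± 1.51 and the growth factor-responsive transcription factor Myc from 24.9 ± 5.71 to 2.49 ± 2.05 (SD, n = 3 each). Phlda1, a pleckstrin homology-like protein, was the 1 that rose, from 48.4 ± 6.84 to 198 ± 18.5 (log2 fold change 2.04, adjusted p = 0.00174). Sgk1, a kinase (log2 fold change -1.27, adjusted p = 0.0204), and the nuclear factor gene Csrnp1 (log2 fold change -1.69, adjusted p = 0.0178), whose groups overlapped, were the smallest falls among those named by the rule. The Csrnp1 call was lost without siControl replicate 2 or siControl replicate 3, and that of Sgk1 without siControl replicate 1 or siControl replicate 3.

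Of the 11 other bZIP partners tested, 5 fell, 0 rose and 6 did not pass (median -1.64), beside 14.4% of all genes lower and 17.6% higher, and the 5 became 3 without siControl replicate 3. They include Maff, a small Maf protein, at 18.8 ± 2.61 and 1.32 ± 0.974 TMM CPM (SD, n = 3 each, log2 fold change -3.69, edgeR adjusted p = 0.000555). Jdp2 (log2 fold change -4.75), Batf (-3.25) and Batf2 (-2.82) also fell, had few counts and were named after their values were seen. With all human and mouse counts as library size, Batf (0.97) and Batf2 (1.63) were positive and Jdp2 was at -0.45. Atf2 and Atf7, ATF proteins that pair with c-Jun, did not pass, at 0.18 and -0.39.

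Of the 21 kinases and factors upstream of AP-1, 7 were lower, 1 was higher and 13 were not called, with a median of -0.12, beside 32% called in either direction over all genes. Without siControl replicate 1 or siControl replicate 3 the 7 became 3, and without siControl replicate 3 the count of higher genes was 0, against 2 without siAATF replicate 3. Elk3, a ternary complex partner of SRF, fell from 55.3 ± 10.9 to 7.39 ± 5.38 TMM CPM, Mapk7, which codes for ERK5, from 14.3 ± 3.63 to 1.94 ± 0.473, and Rps6ka3, which codes for the ERK-activated kinase RSK2, from 25.8 ± 4.42 to 6.41 ± 1.55 (SD, n = 3 each, edgeR adjusted p = 0.00111, 0.000852 and 0.00156). The paired MAP kinase kinases moved apart. Map2k1 fell from 68.7 ± 5.15 to 30.5 ± 11.7 (log2 fold change -1.16, adjusted p = 0.039) and Map2k2 rose from 66.9 ± 19.9 to 233 ± 42.3 (log2 fold change 1.79, adjusted p = 0.00596), a rise that vanished with library size alone (-0.02). Srf itself fell from 32.4 ± 6.72 to 14.7 ± 4.10 (log2 fold change -1.15, adjusted p = 0.0301). The Map2k1 and Srf calls were lost without any one of the siControl libraries or without siAATF replicate 2, and that of Srf also without siAATF replicate 3.

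Of the 14 feedback inhibitors, which dampen MAP kinase or receptor signaling, 7 fell, 1 rose and 6 did not pass (median -1.32), beside 14.4% of all genes lower and 17.6% higher. Dusp5, a nuclear ERK phosphatase, fell from 14.6 ± 6.48 to 1.25 ± 1.31 TMM CPM (log2 fold change -3.37, edgeR adjusted p = 0.00676). The Sprouty genes Spry4, Spry2 and Spry1 fell with log2 fold changes of -2.99, -2.19 and -1.94, and Spred1, a relative of theirs, fell by 1.51 on the log2 scale. Errfi1, an inhibitor of the EGF receptor that hepatocytes express, rose from 149 ± 38.5 to 568 ± 157 (log2 fold change 1.93, adjusted p = 0.00772), a call lost without siControl replicate 3 (adjusted p = 0.0665).

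Of 17 genes reported elsewhere as AP-1 targets and tested here, 15 fell, 0 rose and 2 did not pass (14.4% and 17.6% of all genes were lower and higher), with a median log2 fold change of -5.39, or -4.72 with 2 genes at 0 counts set to their floor. Timp1, a metalloprotease inhibitor, fell from 441 ± 133 to 3.31 ± 4.44 TMM CPM (edgeR adjusted p = 0.000219) and the monocyte chemokine Ccl2 from 90.6 ± 26.8 to 0.806 ± 0.764 (SD, n = 3 each). The smallest falls named were the oxidative stress gene Hmox1 (log2 fold change -3.56), the growth factor Hbegf (-2.82) and the cyclin Ccnd1 (-2.10). Many genes of this list are also expressed by fibroblasts and macrophages. Of the 10 heat shock genes, kept beside the others as a readout of another stress program, 2 fell, 1 rose and 7 did not pass (median -0.08), again beside 32% of all genes called. Without siControl replicate 3 both counts were 0, and the count of higher genes was 2 without siAATF replicate 1 or siAATF replicate 2 and 3 without siAATF replicate 3. Hspa1b fell (log2 fold change -1.78, adjusted p = 0.00558), and so did its near-identical copy Hspa1a (-3.83, and 0.44 with all human and mouse counts as library size), named after its value was seen. Both are uncertain because reads that map to several places were discarded. The mitochondrial chaperone gene Hspd1 rose (log2 fold change 1.97, adjusted p = 0.00558). With library size alone the rises of Phlda1, Errfi1 and Hspd1 were 0.23, 0.15 and 0.23 and were no longer called.

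**Figure D4:**
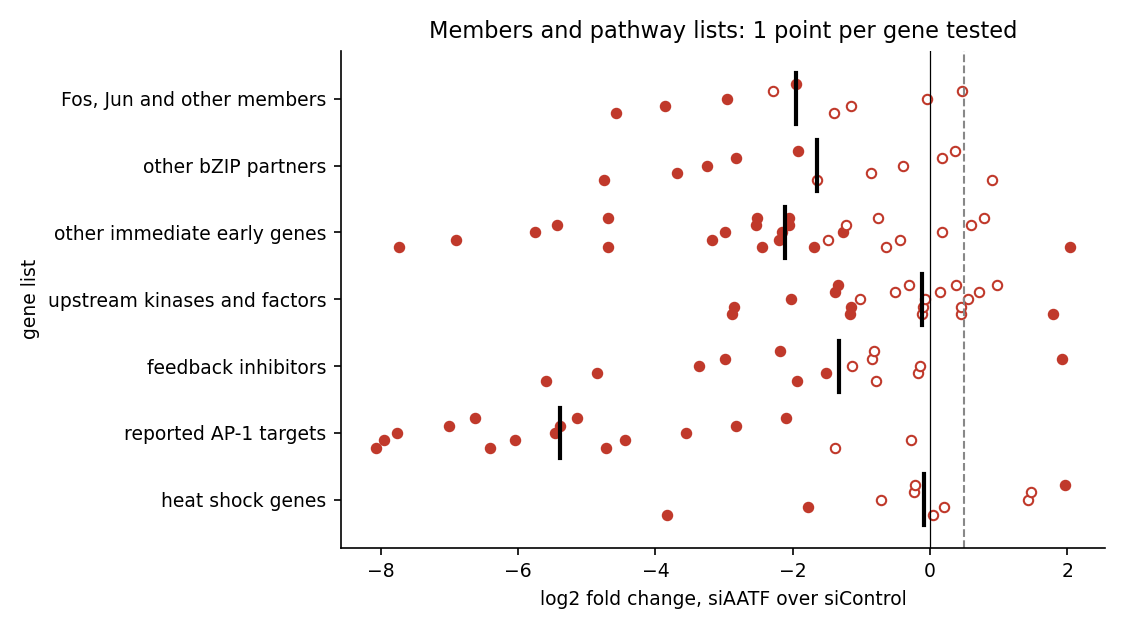
Log2 fold change of every tested gene in the member list and the 6 lists around it, siAATF against siControl, with calls at adjusted p under 0.05 filled, each list's median as a thick bar and the median of all genes dashed. The AP-1 target list lies lowest (median -5.39), the members at -1.95, and the upstream kinases and heat shock genes near 0, against 0.50 for all genes.

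Markers of the cell types in the tissue moved with the group beside all of these lists. All 10 hepatocyte markers rose, summing to between 2010 and 5980 TMM CPM with siControl and between 38430 and 94681 with siAATF. Of the fibroblast markers 9 of 10 fell (8736 to 12818 against 346 to 541), of the macrophage markers 7 of 8 (1602 to 3840 against 85.5 to 160.3), of the neutrophil markers 5 of 6 (94.7 to 1920.5 against 2.22 to 139.6) and of the endothelial markers 5 of 8 (463 to 604 against 65.1 to 204). The 5 Kupffer cell markers (16.9 to 110.0 against 78.7 to 133) did not pass. The 4 cholangiocyte markers summed to 16.9 to 38.5 against 31.6 to 41.4. Of these only Epcam was called, lower at 1.55, 0 and 1.11 TMM CPM with siAATF against 11.2, 2.42 and 6.14 with siControl. The 5 lymphocyte markers summed to 4.83 to 15.1 against 0.403 to 4.94, and 3 could be tested. Of those only Nkg7 was called, lower at 0.104, 0 and 0.998 with siAATF against 0.803, 2.42 and 9.48, groups that overlapped. Nkg7 had 40 counts in all. Over all genes, 14.4% were called lower and 17.6% higher. With all human and mouse counts as library size, the log2 fold changes of 4 of the 9 fibroblast, 2 of the 7 macrophage, 2 of the 5 neutrophil and 4 of the 5 endothelial markers called lower were positive, as were those of Epcam and Nkg7. None of the fibroblast, macrophage, endothelial or hepatocyte markers was at 0 in any library, whereas 4 neutrophil markers were at 0 in some siAATF library. The part of this shift in the lower Fos, Fosl2, Atf3 and Ier3 was not tested, and the share of human RNA, the mouse cell make-up and the siRNA cannot be told apart in this design.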

How the data were processed

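RNA of 6 bulk libraries labelled liver (3 siControl, 3 siAATF) was made into cDNA with a SMART-Seq kit, which amplifies by PCR, and sequenced in pairs. By the study's methods, reads were trimmed with Cutadapt, aligned with STAR to a joined human and mouse genome, kept where they mapped to 1 place in 1 species, and counted with featureCounts, so the deposited values are raw counts per gene for mouse and human. The submitters' processing notes name STAR 2.7.11, featureCounts 2.0.1 and GRCm39. Strand use in counting is not given in the sources used here, so genes overlapping on opposite strands cannot be told apart. Gene lengths and positions came from the mouse count table.

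Of 56884 mouse gene IDs, 56323 were named with GENCODE vM39, and 3 broken lines of the human table were left out of the human total. Mouse genes with at least 10 counts in all were tested in edgeR 4.0.16 (TMM, quasi-likelihood, group as the only term, Benjamini-Hochberg over 18018 genes, threshold 0.05, R 4.3.3). Single values were compared by exact permutation (scipy 1.17.1). Alternatives were DESeq2 1.42.0, other scalings and filters, thinning, a replicate block and leaving out each library. The script was tested on simulated data. Floors cover counting error only.

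The members and lists were chosen with earlier results of these data known. Named genes were the 10 members, Aatf, and from each of 6 lists up to 3 called genes at each end of the fold changes with a mean of at least 20 counts. Some genes that this rule picks are not reported here.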

Additional observations from a re-analysis of the deposited data

How the results depend on the processing

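The libraries differ so much in mouse depth and human share that the scaling sets the sign of most differences. With all human and mouse gene counts as library size, 0 members were called lower and 5 higher, against 9 lower with library size alone, 7 with no filter on low counts and 1 (of 5 tested) with at least 10 counts in every library. For the 6 other lists together, 53 lower and 4 higher became 9 and 68 with all counts, 88 and 0 with library size alone, and 24 lower of 49 tested with at least 10 counts in every library, while 2 of 88 tested were higher after thinning and 1 with the study's call rule (raw p below 0.05, log2 change of 2 or more either way). Over all mouse genes, 2593 lower and 3169 higher became 119 and 15711 with all counts, 7276 and 747 with library size alone, and 873 and 872 of only 3552 tested with at least 10 counts in every library, and 1219 of 9653 tested were higher after thinning. Leaving out 1 library gave 3 to 5 members lower, 1 to 7 list genes higher (1 without siControl replicate 3, 7 without siAATF replicate 3), 1722 to 2509 genes lower and 1611 to 3579 higher, the lowest without siControl replicate 3. The human share of counts differed by 97.1 percentage points, and by 96.2 without mitochondrial genes in either species. Leaving mitochondrial genes out of the mouse table, chosen after seeing the data, gave 4 members lower.

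With all counts, these log2 fold changes turned positive: Fos 2.53, Fosb 1.99, Fosl2 1.32, Jun 4.31, Junb 2.87, Egr1 3.39, Atf3 0.43, Maff 0.59, Myc 1.15, Csrnp1 2.65, Sgk1 2.99, Elk3 1.53, Mapk7 1.38, Rps6ka3 2.16, Map2k1 3.17, Srf 3.14, Dusp5 0.91, Spry4 1.41, Spry2 2.14, Spry1 2.41, Spred1 2.78, Hmox1 0.76, Hbegf 1.47, Ccnd1 2.02, Hspa1b 2.46, Batf 0.97, Batf2 1.63 and Hspa1a 0.44. With library size alone Jund (-1.29), Aatf (-0.92) and Map2k2 (-0.02) turned negative, as did Aatf after thinning (-0.11). Jun, near 0, also changed sign with TMM without the 500 highest genes (0.03), with no filter (0.05) and without siAATF replicate 2 (0.08), siAATF replicate 3 (0.19) or siControl replicate 2 (0.01), and ran from -0.32 to 0.19 over the fits without 1 library. Of 138 refits of the 9 members, 107 kept direction and call.

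Same-numbered libraries did not deviate together (correlations 0.11, 0.154 and -0.024), and not every library correlated best with its own number, so the numbers were not read as pairs. With the replicate number as a block, 6 members were lower, Junb (-1.86) and Egr1 (-1.41) joining, and 2912 genes were lower and 3854 higher. The causes of these changes were not tested.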

Other observations

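Among the siAATF libraries, replicate 3 held the highest levels of Junb (122 TMM CPM), Fosl2 (11.5) and Ier3 (7.43), and its neutrophil markers summed to 139.6 TMM CPM against 2.83 and 2.22 in replicates 1 and 2. Fos (14.9), Jun (164), Jund (123), Egr1 (43.9) and Atf3 (5.66) were highest in siAATF replicate 1. Among the siControl libraries, replicate 1 held the lowest levels of Fos (20.9), Fosl2 (36.9), Egr1 (20.1) and Ier3 (51.4), and its neutrophil markers summed to 94.7 against 1920.5 and 1419 in replicates 2 and 3. Macrophage markers ran the other way with siControl, at 3840 in replicate 1 against 1602 and 2541. Jun (107) and Junb (124) were also lowest in siControl replicate 1, Jund (77.1) lay between the other two libraries, and Atf3 (74.7) and Fosb (3.21) were highest there. With 3 libraries a group these are values only, and no relation was tested.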
